A study of Mus musculus with 12 samples.

Results

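Double mutant LSK cells, homozygous both for Pcna K164R and for loss of Rev1 (Rev1-/-), were compared with wild-type (WT) LSK cells. The members are the plates whose genotype label reads homozygous for both genes or wild type for both, that is 4 double mutant and 3 WT plates of the 12 in the series. The remaining 5 plates, 3 of Rev1 knockout and 2 of Pcna K164R, entered the same statistical fit and served only to estimate the spread and the effect of the sort date. All plates came from C57BL/6J fetal liver at embryonic day 18.5, and LSK cells (lineage-negative, Sca-1-positive, Kit-positive) were isolated by fluorescence-activated sorting with no further treatment. Single cells were sorted into wells and processed by SORT-seq, a 3'-end method in which each transcript receives a barcode of its well and a unique molecular identifier (UMI). The series text speaks of 96-well plates, whereas every deposited table held 384 wells. Wells with at least 1000 UMIs outside the spike-in RNAs were summed into 1 value per gene and plate. This kept 814 double mutant wells and 857 WT wells, together 1671 of the 3088 wells kept in the series.

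LSK cells contain the haematopoietic stem cells and the multipotent progenitors that feed the lymphoid, myeloid and erythroid lineages. Pcna encodes the sliding clamp that holds DNA polymerases on the template. When replication stalls at a lesion, the lysine K164 of the clamp is ubiquitinated, which recruits translesion polymerases or starts template switching. Rev1 encodes a translesion polymerase that also serves as a scaffold for the other translesion polymerases. Unrepaired damage is known to activate p53, which halts the cell cycle. The codon is printed because the genotype turns on it. In the reference genome the K164 codon of Pcna lies at chr2:132251334-132251336 on the minus strand (GRCm38, GENCODE annotation), in exon 4 of the coding transcript. It is written in capitals within its coding context.
Pcna K164 codon: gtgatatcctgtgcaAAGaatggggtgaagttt

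Plates are numbered by order of deposit, and values below are given for WT replicates 1 to 3 and then for double mutant replicates 1 to 4. The labels give 3 sort dates, here sessions 1 to 3. Session 1 held WT replicate 1 and double mutant replicates 1 and 2, session 2 held double mutant replicate 3 with 1 Rev1 knockout plate, and session 3 held the remaining WT plates with double mutant replicate 4. The single WT plate of session 1 and the single double mutant plate of session 3 are assumed, in values given within a session, to vary like the other plates of that session. No flow cell carried both genotypes, so a fit with flow cell in place of session compares them only through the single mutant plates. That fit called 0 genes (edgeR; 1376 had an unadjusted p under 0.05). The labels do not say that the plates of a genotype came from separate fetuses. All p-values therefore measure the spread between plates, which may be technical. WT plates held 2489661 to 7259627 UMIs, and double mutant replicates 1, 2 and 4 held 2402867 to 11617420. Double mutant replicate 3 was thin, with 82 kept wells and 212938 UMIs. A single UMI in it equals 8.68 CPM (counts scaled to a common library size by TMM), against 4.70 CPM before TMM. In WT replicate 2 the same step took Rev1 from 20.5 to 18.4 CPM, so levels of replicate 3 depend more on the scaling. Over all wells a listed 0 in replicate 3 allows up to 3 UMIs, or 26 CPM. That limit covers counting error only. Levels in replicate 3 that rest on a few UMIs carry such error too. Overlap between groups is judged throughout on the listed levels, TMM-scaled unless stated, without regard to this error.

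The targeted gene was examined first. Rev1 was measured at 10.5, 18.4 and 12 CPM in the WT plates and at 1.33, 2.50, 8.68 and 13.4 CPM in the double mutant plates. Double mutant replicates 1 and 2 lay below every WT plate, whereas the library labelled double mutant replicate 4 lay inside the WT range with 33 UMIs. The value of double mutant replicate 3 rests on 1 UMI. The 3 plates labelled Rev1 knockout held 1.26 to 5.62 CPM, all below WT. The difference in Rev1 did not pass the threshold with all plates (log2 fold change −1.39 ± 0.51, edgeR adjusted p = 0.129). Because Rev1 in that library went against its label, the calls and the medians of the main gene lists are also given without it. Pcna counts cannot show a codon change. They were 658, 716 and 430.2 CPM in the WT plates and 1043, 905, 347 and 962 CPM in the double mutant plates, with overlapping groups and no call (log2 fold change 0.41 ± 0.33, edgeR adjusted p = 0.506).

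Markers of the gate were present. Kit, which encodes the receptor used for the gate, was measured at 390.3, 505 and 325 CPM in the WT plates and 219, 249, 122 and 231 CPM in the double mutant plates. Ly6a, which encodes Sca-1, was measured at 56, 75.3 and 67.2 CPM in the WT plates and 30.2, 24.9, 0 and 19.1 CPM in the double mutant plates. Both were lower in all 4 double mutant plates than in any WT plate, although cells were selected on both proteins, so the gene levels are no finding about the gate. Only Ly6a passed the threshold (log2 fold change −1.47 ± 0.26, edgeR adjusted p = 0.0159), and Kit, named after its values were seen, missed it (−0.92 ± 0.25, adjusted p = 0.0558). The plates also differed in sex-linked transcripts. Xist, which silences an X chromosome in females, stood at 0.263, 0.937 and 1.82 CPM in WT and at 70.5, 57.7, 60.8 and 1.62 CPM in the double mutant plates. The Y-linked Ddx3y stood at 116 to 159 CPM in WT and 50.5 to 106 CPM in the double mutant. Xist was thus high in 3 of 4 double mutant plates and in no WT plate, and Ddx3y was lower in every double mutant plate than in any WT plate. Sex moved with genotype in this way, and its part in the results on other chromosomes was not tested. Of 422 X and Y genes tested, 7 were called higher and 10 lower, shares close to the 1.8% and 2.41% over all genes tested.

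With the plate as replicate and session as a batch term, 514 of 12221 genes passed a Benjamini-Hochberg adjusted p of 0.05 (edgeR quasi-likelihood test). Such genes are referred to as called. Of these, 220 were higher in the double mutant (1.8% of genes tested) and 294 were lower (2.41%). These shares are the background for every count of called list members over all wells below. Among the genes called higher were Cdkn1a, erythroid genes, and genes of ribosome and mitochondrial biogenesis. Among the genes called lower were interferon-stimulated genes, imprinted growth genes, stem cell regulators and lymphoid genes. The median log2 fold change over all genes tested was −0.04. An unadjusted p under 0.05 was found for 2778 of the 12221 genes. DESeq2 called 676 higher and 754 lower. Counts of these kinds given for lists over all wells are to be read against these. Without regard to the test, all 4 double mutant plates lay above all 3 WT plates for 581 genes (4.75%) and below them for 1340 genes (11.0%). A listed 0 in the thin replicate 3 counts as below.

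Cells were sorted singly and no doublet caller was run. Wells that contained no UMI of Klf1, Rhd or Rhag, 3 transcripts of red cell precursors, were summed separately. This left 347 double mutant and 649 WT wells. Wells were not thinned for this rule, so it acts more on deep wells. It removed 41.2%, 7.54% and 16.4% of wells in the WT plates and 54.3%, 70.9%, 17.1% and 64.5% in the double mutant plates. Median UMIs per kept well were 14960, 7537 and 12280 in WT and 30735, 34853, 1730 and 22571 in the double mutant. Shallow wells can pass although they hold an erythroid cell, so the remaining wells may not be alike across plates. In these erythroid-free wells 46 of 11716 genes were called, 11 higher (0.0939%) and 35 lower (0.299%). Of the 11716, 1578 had an unadjusted p under 0.05, and DESeq2 called 152 higher and 178 lower. All 46 had been called in the same direction over all wells, where they make up 8.95% of the 514 calls. Both sums share wells, so the second is not independent of the first. The genes called lower over all wells kept more of their difference than those called higher. This contrast is fixed in part by the rule. Wells were removed by erythroid transcripts, so genes expressed with these lose difference, and the erythroid and haem lists were called only higher. Of the 292 called lower that could be measured, 292 kept their sign and 281 (96.2%) kept over 50% of their log2 fold change, and their median went from −1.37 to −1.08. Of the 202 called higher, 193 kept their sign and 142 (70.3%) kept over 50%, with the median going from 1.08 to 0.72. The plot of called genes in all wells against erythroid-free wells shows most erythroid genes nearer to 0 on the second axis, while the interferon genes lie near the diagonal.

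**Figure D1:**
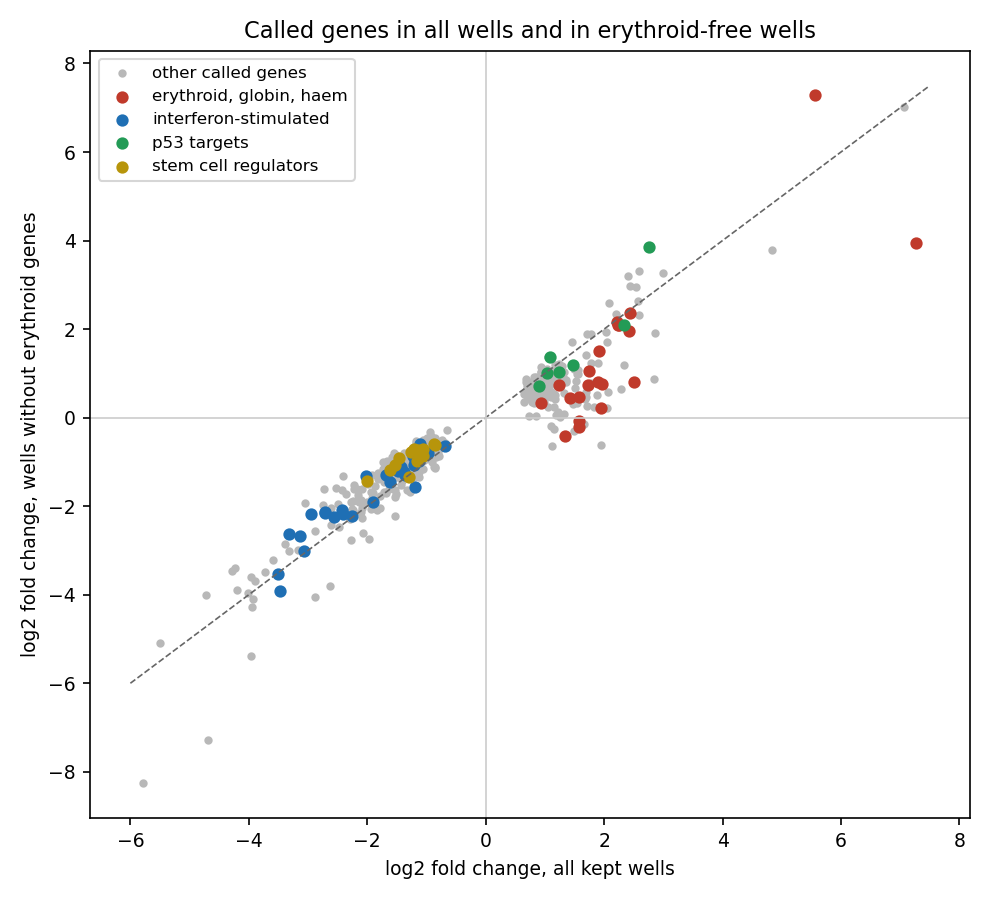
Log2 fold change of the double mutant against WT over all kept wells (x axis) and over wells without a UMI of Klf1, Rhd or Rhag (y axis), 1 point for each gene called over all wells and measured in both, with members of 4 gene groups coloured. The dashed line marks equal values. Most erythroid, globin and haem genes lie below it, with 1 globin gene above it, while interferon-stimulated genes lie near it. Wells on the y axis were chosen by erythroid transcripts, which itself lowers genes expressed with them.

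Leaving out the library labelled double mutant replicate 4 left 12 of 12157 genes called, 2 higher (0.0165%) and 10 lower (0.0823%). Of the 12157, 1368 had an unadjusted p under 0.05. The 2 higher were Cdkn1a and Ccnb1. The 10 lower were Meg3, Wfdc17, Ccl4, Igf2, Ifi44, Dlk1, Trim30d, Zfp608, Setbp1, which encodes a chromatin protein that binds SET, and Igf1, a growth factor. All 513 calls of the full set that could be tested kept their sign without it. The 2 fits share every other plate and the genes were chosen by their calls, so this was nearly fixed in advance. In erythroid-free wells 6 of the 46 calls remained without it, all lower, namely Meg3, Wfdc17, Ccl4, Igf2, Ifi44 and Ifit1. None of the 11 higher calls there passed without it, with Cdkn1a at 1.73 (edgeR adjusted p = 0.154), Ccng1 at 0.90 (adjusted p = 0.21) and Zfp365 at 3.56 (adjusted p = 0.202) on the log2 scale.

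Among the genes called higher were targets of p53, the transcription factor that halts the cell cycle or starts apoptosis after DNA damage. Of 38 tested targets 7 were called higher and 0 lower by edgeR, against 1.8% and 2.41% over all genes. The median log2 fold change was 0.51 against −0.04. An unadjusted p under 0.05 was found for 17 of the 38, against 2778 of 12221 genes. DESeq2 called 10 higher and 2 lower, against 676 and 754 of 12221 genes. The summed level of the listed genes was 1076, 1076 and 1038 CPM in WT and 1519.7, 1466, 1345 and 1384 CPM in the double mutant. After TMM each double mutant plate thus exceeded each WT plate. For replicate 3 this rests on that step, which took 1 UMI in it from 4.70 to 8.68 CPM. The separation does not hold for the mean log2 CPM of the tested members. It was 3.72, 3.74 and 3.79 in WT and 4.23, 4.24, 3.09 and 4.27 in the double mutant, with replicate 3 below WT. Cdkn1a, which encodes the cyclin-dependent kinase inhibitor p21, was measured at 21.5, 6.87 and 11.3 CPM in the WT plates and 73.9, 96.4, 60.8 and 61.6 CPM in the double mutant plates. The groups did not overlap. The log2 fold change was 2.33 ± 0.26 (edgeR adjusted p = 0.00218), and 2.08 with replicate 4 of the double mutant left out (adjusted p = 0.0463). Ccng1, which encodes cyclin G1, a classical p53 target, stood at 85.9, 74 and 74.4 CPM in the WT plates and 183, 179, 95.5 and 168 CPM in the double mutant plates. Double mutant replicate 3 was the closest to WT, and the groups did not overlap (log2 fold change 1.04 ± 0.19, edgeR adjusted p = 0.0165). Bax, a pro-apoptotic member of the Bcl-2 family, stood at 46.2, 30.3 and 34.1 CPM in the WT plates and 91.2, 96.5, 26 and 98.9 CPM in the double mutant plates. Here the thin replicate 3 fell below all WT plates with 3 UMIs, and the other double mutant plates exceeded WT (log2 fold change 1.23 ± 0.22, edgeR adjusted p = 0.0165).

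Other called targets followed. Aen, an apoptosis-enhancing nuclease, had a log2 fold change of 0.90 ± 0.19, with 36.8 ± 6.15 CPM (SD, n = 3) in WT and 75.7 ± 8.98 CPM (SD, n = 4) in the double mutant. Zfp365, a zinc finger protein linked to replication stress, was near absent in WT at 1.32, 0.312 and 0.726 CPM and reached 7.62, 5.41, 8.68 and 5.27 CPM in the double mutant, where the value of replicate 3 is 1 UMI. Gtse1, a microtubule-binding protein of G2 cells that also restrains p53, rose by 1.09 on the log2 scale. Other targets did not pass: Mdm2, the ubiquitin ligase that degrades p53, was measured at 58, 70.9 and 64.3 CPM in the WT plates and 88.7, 83.4, 26 and 66.1 CPM in the double mutant plates with overlapping groups (log2 fold change 0.17 ± 0.24). With the library labelled double mutant replicate 4 left out of all wells, the list's median was 0.49 and Cdkn1a alone was called (14 had an unadjusted p under 0.05). Within session 1 the median was 0.52 and within session 3 0.65. In erythroid-free wells the list's median was 0.55, with 3 of 38 members called higher, namely Cdkn1a, Ccng1 and Zfp365. Cdkn1a in those wells was 29.7, 7.74 and 13.7 CPM in WT and 78.1, 108, 55.1 and 72.9 CPM in the double mutant (log2 fold change 2.09 ± 0.32, edgeR adjusted p = 0.0146). In wells with an erythroid UMI, before TMM scaling, Cdkn1a stood at 15.5, 2.72 and 6.02 CPM in WT and 68.6, 92.6, 37.1 and 59.1 CPM in the double mutant. In both kinds of well every double mutant plate exceeded every WT plate. Replicate 3 held 5 UMIs in erythroid-free wells and 2 UMIs in the others. Before TMM its level in erythroid-free wells was 31.4 CPM, beside 31.0 CPM in WT replicate 1, so its distance from WT there rests on the scaling. Of 28 apoptosis regulators, 2 were called higher (Bax and Birc5) and 1 lower (Bmf, a pro-apoptotic BH3-only protein), with a median of −0.07, beside −0.04 for all genes.

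**Figure D2:**
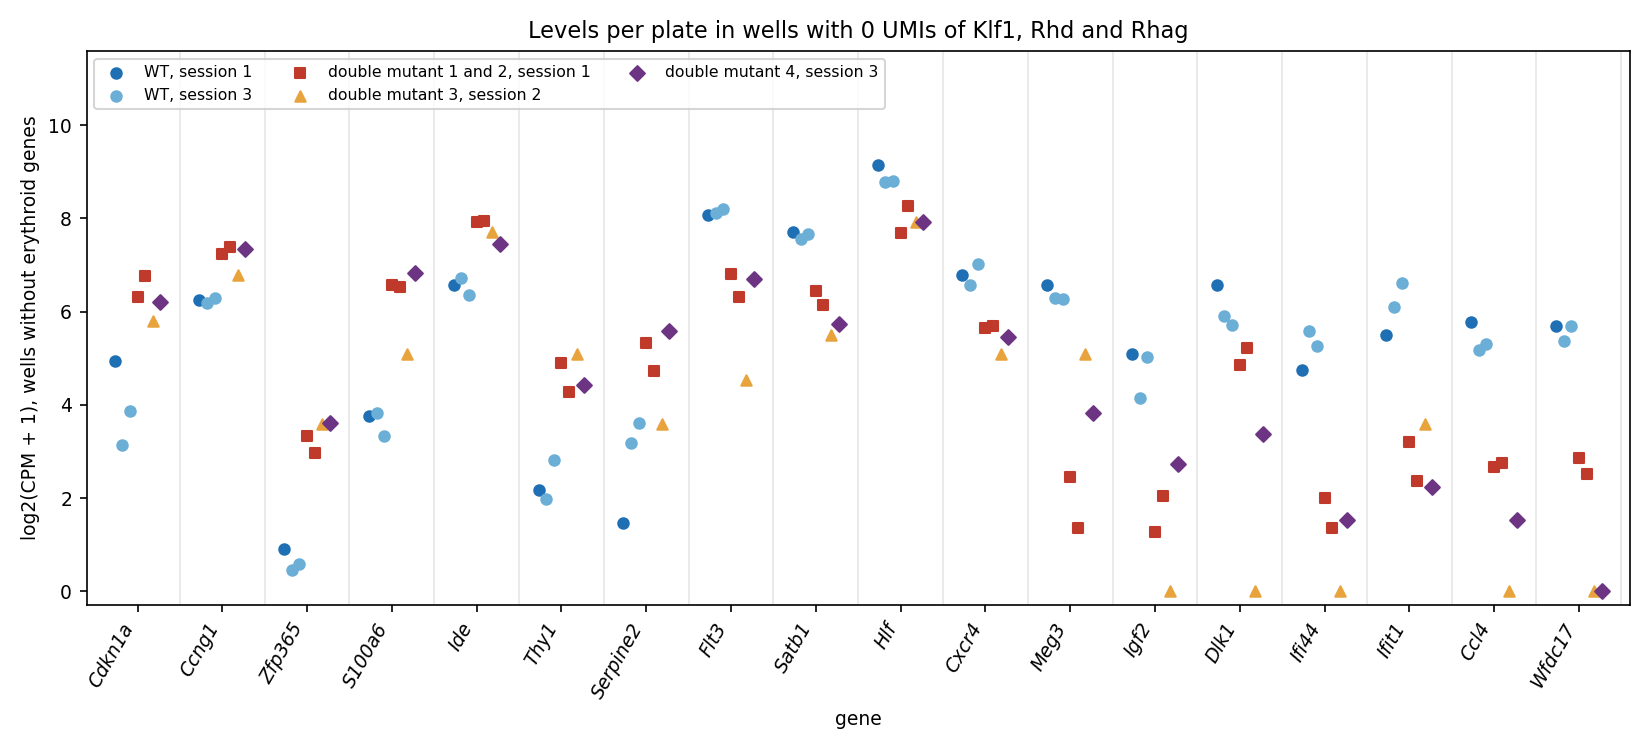
Level of 18 genes in erythroid-free wells, as log2(CPM + 1) on the y axis, each point being 1 of 3 WT or 4 double mutant plates, coloured by genotype and sort session. On this TMM-scaled axis Cdkn1a lies above WT in all 4 double mutant plates, and Flt3, Hlf and Ifi44 are listed below WT in all 4. A double mutant replicate 3 point at 0 is a gene without a UMI in that thin plate. For Ifi44 such a 0 allows up to 3 UMIs, which reaches into the WT range.

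The genes called higher in erythroid-free wells were 11 in number, and 3 were the p53 targets above. As stated, none of the 11 passed there once double mutant replicate 4 was left out. The smallest p belonged to S100a6, which encodes a small calcium-binding protein. Over all wells it was measured at 9.62, 12.5 and 6.9 CPM in the WT plates and 66.1, 45.8, 34.7 and 52.7 CPM in the double mutant plates, with no overlap. In erythroid-free wells it was 12.6, 13.3 and 9.11 CPM in WT and 93.9, 91, 33.1 and 112 CPM in the double mutant (log2 fold change 2.98 ± 0.35, edgeR adjusted p = 0.00176). Pvt1, a long non-coding RNA transcribed next to Myc, stood at 10.4, 4.69 and 5.81 CPM in the WT plates and 46.8, 45.5, 8.68 and 36.9 CPM in the double mutant plates. Only the thin replicate 3, with 1 UMI, lay within the WT range, and the call held in erythroid-free wells (log2 fold change 3.20 ± 0.49, edgeR adjusted p = 0.0142). Thy1, a surface glycoprotein of T cells and of some progenitors, rose from 3.03, 2.81 and 5.08 CPM to 19, 16.4, 43.4 and 7.71 CPM over all wells. Serpine2, an inhibitor of serine proteases, stood at 1.45, 7.19 and 9.8 CPM in WT and 27.1, 19.1, 17.4 and 23.9 CPM in the double mutant. Ide, the insulin-degrading metalloprotease, stood at 104, 102 and 87.1 CPM in the WT plates and 249, 257, 191 and 197 CPM in the double mutant plates, and every double mutant plate exceeded every WT plate. Crip2, a LIM domain protein, Pnp2, a purine nucleoside phosphorylase, and Mrpl16, a protein of the mitochondrial ribosome, complete the 11. Pnp2 has a near-identical neighbouring copy, so its reads could be split in counting and its value is uncertain.

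Genes of ribosome biogenesis, the processing of ribosomal RNA and the assembly of ribosomal subunits in the nucleolus, had small positive fold changes in nearly the whole list. Of 87 tested genes 11 were called higher and 0 lower, against 1.8% and 2.41% of all genes. A positive fold change was found in 86, and the median was 0.50. In 24 of the 87 all double mutant plates exceeded all WT plates, against 4.75% of all genes. Their summed level was 11860, 9534 and 9915 CPM in WT and 16816, 16762, 13792 and 15589 CPM in the double mutant, without overlap after TMM. The place of replicate 3 above WT rests on that step, which took 1 UMI in it from 4.70 to 8.68 CPM. Their mean log2 CPM did overlap, at 6.27, 5.99 and 6.06 in WT and 6.62, 6.64, 6.065 and 6.72 in the double mutant. There replicate 3 lay within the WT range. In erythroid-free wells 78 of 87 remained above 0 and the median was 0.39, with 0 called by edgeR (33 had an unadjusted p under 0.05, and DESeq2 called 11 higher). The sums in those wells were 9979, 9614 and 9119 CPM in WT and 14857, 14331, 13828 and 12128 CPM in the double mutant, again without overlap after TMM. After the library labelled double mutant replicate 4 was left out, the median over all wells was 0.34, with 0 called by edgeR (23 had an unadjusted p under 0.05).

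Single factors of this list showed the size of the change. Wdr55, needed for ribosomal RNA processing, was measured at 59.9, 34.1 and 39.6 CPM in the WT plates and 112, 126, 95.5 and 119 CPM in the double mutant plates (log2 fold change 1.31 ± 0.21, edgeR adjusted p = 0.0106). Mrto4, which prepares the large subunit for its stalk protein, stood at 55.3, 21.2 and 24.7 CPM in the WT plates and 80.9, 103, 69.4 and 73.8 CPM in the double mutant plates (log2 fold change 1.19 ± 0.22, adjusted p = 0.0188). In both the lowest double mutant plate exceeded the highest WT plate. Lyar, a nucleolar zinc finger protein, Bysl, an assembly factor of the small subunit, Noc4l, which acts in pre-40S export, and Rpf2, which loads the 5S particle, rose by 0.90, 1.11, 0.99 and 0.80 on the log2 scale. Over all wells the 77 cytosolic ribosomal protein genes gave 0 calls by edgeR (2 had an unadjusted p under 0.05, and DESeq2 called 1 lower), with a median of −0.05. The sign of that median changes with the scaling and the plates used.

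Because the Myc family binds the E-box CACGTG, promoters of the ribosome biogenesis genes were searched for these letters, which read the same on both strands. Promoters are RefSeq windows of the GRCm38.p6 build, from 250 bases before to 50 bases after a gene's start. Of 78 genes with a window, 18 (23.1%) held CACGTG, against 11.9% of 9799 genes tested and 7.15% of all windows. The 2 examples shown are Rpf2 at chr10:40246990-40247289 (minus strand) and Ltv1, a small subunit export factor, at chr10:13193088-13193387 (minus strand), both called higher, with the E-box in capitals. Ltv1 was chosen after its values were seen (log2 fold change 0.68 ± 0.16). Among p53 targets 6 of 29 genes with a window (20.7%) held CACGTG too. Of 22 tested genes of the Myc network 2 were called higher, Pvt1 and Srm, and 1 lower, Mycl1 (log2 fold change −3.27). The median of that list was 0.19, or 0.05 in erythroid-free wells, with 12 genes above 0 and 10 below over all wells. A match is a description of the letters.
Rpf2: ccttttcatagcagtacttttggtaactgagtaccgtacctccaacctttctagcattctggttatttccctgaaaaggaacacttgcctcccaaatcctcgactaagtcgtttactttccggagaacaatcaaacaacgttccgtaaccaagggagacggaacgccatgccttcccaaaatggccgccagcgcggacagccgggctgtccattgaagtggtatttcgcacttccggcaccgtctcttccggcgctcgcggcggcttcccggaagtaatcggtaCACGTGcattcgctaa
Ltv1: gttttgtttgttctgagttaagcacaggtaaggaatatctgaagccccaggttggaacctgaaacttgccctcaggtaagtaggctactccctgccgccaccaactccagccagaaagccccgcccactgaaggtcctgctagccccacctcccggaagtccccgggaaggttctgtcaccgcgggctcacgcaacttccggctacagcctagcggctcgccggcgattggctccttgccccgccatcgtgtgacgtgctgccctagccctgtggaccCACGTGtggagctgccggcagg

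Mitochondrial and biosynthetic lists had positive medians too. Of 30 genes of mitochondrial protein import and folding, 4 were called higher, against 1.8% of all genes, and 0 lower, with a median of 0.65. Hspd1 and Hspe1, the chaperonin pair that folds imported proteins, were called, with Hspd1 at 414, 375 and 400.4 CPM in the WT plates and 565, 679.7, 920 and 935 CPM in the double mutant plates, without overlap (log2 fold change 0.99 ± 0.21). Of 75 genes of mitochondrial translation, 6 were called higher, 0 lower and 72 lay above 0 (median 0.51), with Mrpl16 rising by 0.93 and Mrpl20 by 1.02 on the log2 scale. Their summed level was 4614, 4211 and 4381 CPM in WT and 6847, 6704, 2959.8 and 6799 CPM in the double mutant. The thin replicate 3 lay below WT and the other 3 plates above it. The 75 respiratory chain genes had a median of 0.44 and 0 calls by edgeR. Of these genes 21 had an unadjusted p under 0.05, against 2778 of 12221 genes, and DESeq2 called 12 higher. All 20 cytosolic tRNA synthetase genes had a positive fold change, 5 were called, and the median was 0.59. Tars, which charges threonine tRNA, rose from 89.6, 75.6 and 79.1 CPM to 154, 152, 113 and 154 CPM. Farsb, a subunit of the phenylalanine enzyme, rose by 0.89 on the log2 scale.

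Of 32 nucleotide synthesis genes 3 were called higher and 0 lower (median 0.48). Gmps, which makes GMP, was measured at 61.7, 56.2 and 56.6 CPM in the WT plates and 126, 113, 95.5 and 114 CPM in the double mutant plates, without overlap (log2 fold change 0.95 ± 0.16, edgeR adjusted p = 0.0147), and Ctps, which makes CTP, rose by 0.70 on the log2 scale. Srm, the spermidine synthase and a known Myc target, rose by 0.92. All 39 proteasome and chaperonin genes lay above 0, with 3 called higher and a median of 0.52. The proteasome ATPase subunit Psmc2 was among them (117 ± 26.8 CPM (SD, n = 3) in WT and 234 ± 66.9 CPM (SD, n = 4) in the double mutant). Amino acid response genes gave 3 calls higher and 1 lower of 29, and Asns, which makes asparagine, had the largest rise, from 92.2, 36.6 and 61.4 CPM to 170, 213, 60.8 and 303 CPM with an overlap in replicate 3. In erythroid-free wells the medians of these lists were 0.56 for mitochondrial import, 0.38 for mitochondrial translation, 0.36 for tRNA synthetases, 0.34 for nucleotide synthesis and 0.40 for the proteasome. Mrpl16 was the only member of these 5 lists called there. With the library labelled double mutant replicate 4 left out, the medians lay between 0.35 and 0.44 over the same 5 lists. Then 0 members were called by edgeR. Of their members 4, 11, 6, 5 and 11, in the order above, had an unadjusted p under 0.05, against 1368 of 12157 genes. Within session 1 the median was 0.41 and within session 3 0.69 for ribosome biogenesis.

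**Figure D3:**
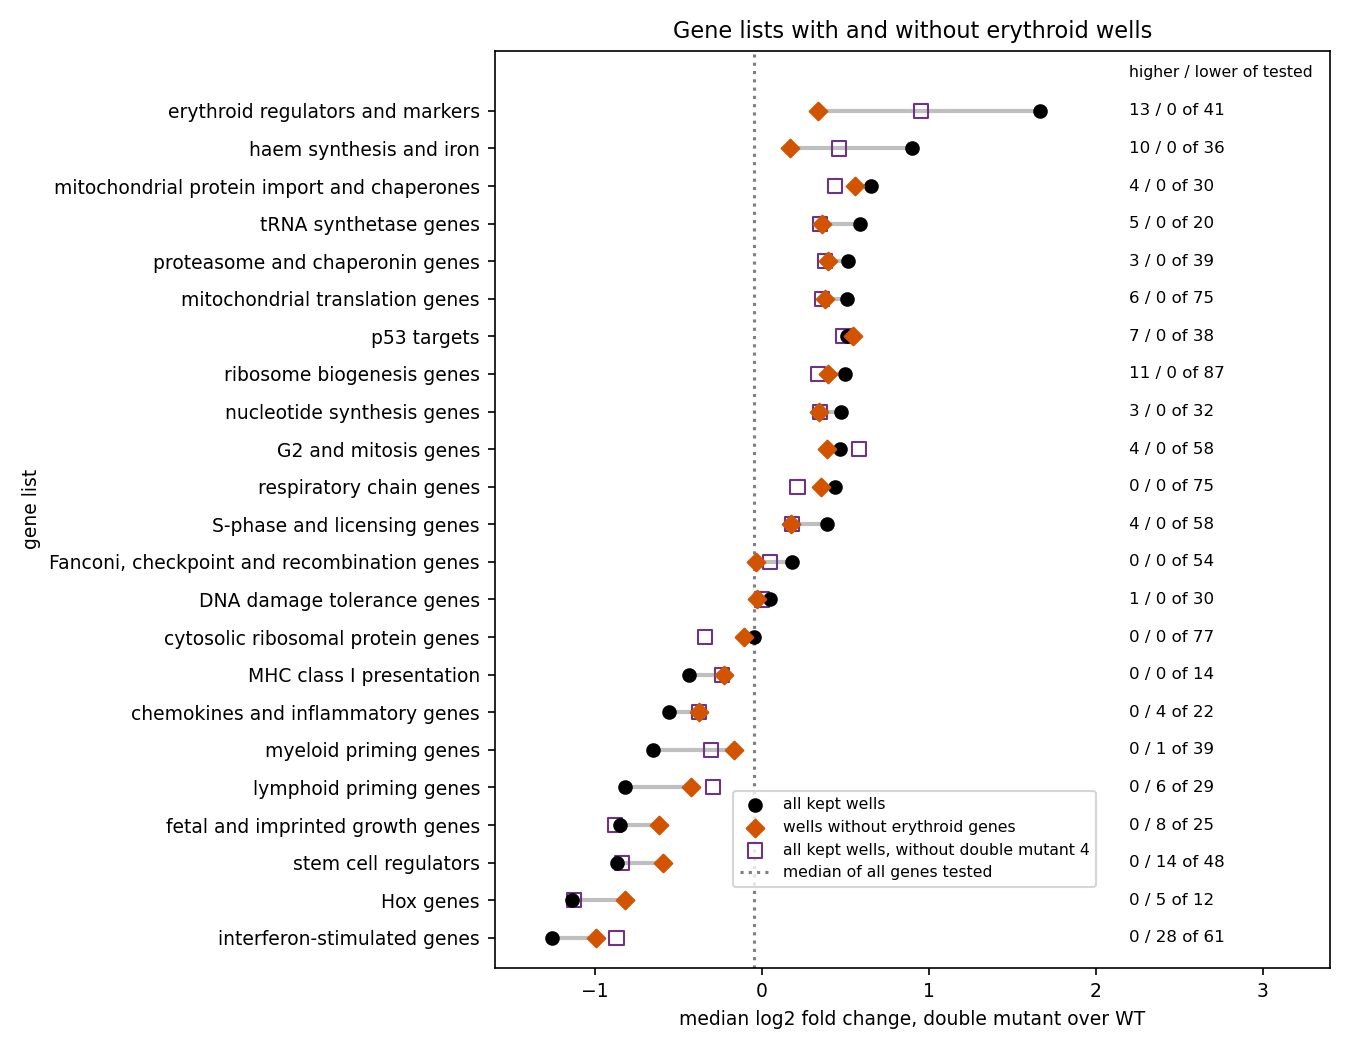
Median log2 fold change of the double mutant against WT for gene lists, over all kept wells, over erythroid-free wells and without the library labelled double mutant replicate 4 (x axis), with the number of members called higher and lower beside each list. Erythroid and haem lists shrink toward 0 in erythroid-free wells, which were chosen by erythroid transcripts, and the interferon list keeps a median of −0.99.

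Erythroid genes were among those called higher over all wells. Of 41 tested erythroid regulators and markers, 13 were called higher, against 1.8% of all genes, and 0 lower, with a median of 1.67. Their summed level was 4429.5, 2553 and 2823 CPM in WT and 5523, 6479, 2499.8 and 8836 CPM in the double mutant. The thin replicate 3 lay below every WT plate, and the other 3 double mutant plates lay above every WT plate. Epb4.2, which encodes the membrane skeleton protein 4.2, was measured at 3.29, 5.62 and 6.53 CPM in the WT plates and 20.6, 17.4, 26 and 33.7 CPM in the double mutant plates (log2 fold change 2.50 ± 0.32, edgeR adjusted p = 0.00455). Hemgn, a nuclear regulator of erythroid differentiation, stood at 37.3, 33.7 and 25.8 CPM in the WT plates and 77.9, 94.9, 78.1 and 189 CPM in the double mutant plates (log2 fold change 1.89 ± 0.31). Neither overlapped with WT. Kel, a blood group antigen, rose by 2.25 on the log2 scale. The embryonic globin Hba-x rose from 1.05, 4.69 and 1.45 CPM to 35.3, 94.9, 17.4 and 129 CPM. Hbb-y, the embryonic beta-like chain, stood at 0.395, 0.312 and 0.726 CPM in WT and 26.5, 124, 0 and 67.7 CPM in the double mutant, with replicate 3 at 0. In summed wells a larger number of erythroid cells and more erythroid RNA per cell cannot be told apart.

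The haem and iron list followed. Of 36 members 10 were called higher and 0 lower (median 0.90), with summed levels of 4793, 3711 and 4138 CPM in WT and 7009, 7071, 2899 and 9244 CPM in the double mutant, where replicate 3 lay below WT and the others above. Tfrc, the transferrin receptor that imports iron, was measured at 132, 68.4 and 85.7 CPM in the WT plates and 282, 314, 182 and 392 CPM in the double mutant plates, without overlap (log2 fold change 1.73 ± 0.28, edgeR adjusted p = 0.0106). Uros and Fech, enzymes of haem synthesis, rose by 1.97 and 1.42 on the log2 scale. These differences were smaller without erythroid wells, which the removal of wells by erythroid transcripts itself brings about in part. In erythroid-free wells 0 of 32 erythroid and 0 of 36 haem genes were called by edgeR, and the medians were 0.34 and 0.17. An unadjusted p under 0.05 was found for 7 and 6, against 1578 of 11716 genes, and DESeq2 called 0 and 2 higher. The summed erythroid level there was 2206, 1902 and 1790 CPM in WT and 1809, 2087, 1774 and 2286 CPM in the double mutant, with overlapping ranges and with Klf1, Rhd and Rhag at 0 by the rule. With the library labelled double mutant replicate 4 left out, the medians over all wells were 0.95 and 0.46, with 0 called by edgeR (10 and 8 had an unadjusted p under 0.05). Within session 1 the median was 0.56 and within session 3 2.46 for the erythroid list.

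The share of wells with an erythroid UMI was compared with each well thinned to 1000 UMIs, since wells differed in depth. It was 9.97%, 2.30% and 3.51% in the WT plates and 15.4%, 22.4%, 7.32% and 24.3% in the double mutant plates. Replicate 3 lay within the WT range and the other 3 plates above it. The means were 5.26 ± 4.13% (SD, n = 3) and 17.4 ± 7.71% (SD, n = 4), and the difference did not pass a two-sided exact permutation test over plates (p = 0.0857, the smallest possible being 0.0286). Without thinning the means were 21.7% and 51.7% (exact permutation p = 0.114). Some thinned wells held a UMI of Flt3, a gene of multipotent and lymphoid progenitors. Of these, 2 of 200 WT wells (1.0%) and 7 of 56 double mutant wells (12.5%) also held an erythroid UMI. By plate the counts were 1 of 76, 1 of 77 and 0 of 47 in WT. In the double mutant they were 3 of 29, 2 of 18, 1 of 3 and 1 of 6. Among wells without Flt3 the shares were 7.46% of 657 and 18.5% of 758. These shares pool wells of several plates, and their difference was not tested over plates.

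The letters AGATAA, a form of the GATA motif bound by Gata1, were searched on both strands of the erythroid promoters. Of 29 genes with a window 11 (37.9%) held them, against 8.12% of 9799 genes tested and 11.2% of all windows. Shown are Epb4.2 at chr2:121036828-121037127 (minus strand) and Hemgn at chr4:46404134-46404433 (minus strand) (RefSeq, GRCm38.p6), the 2 erythroid genes with the smallest p, with the motif in capitals and read as TTATCT where it lies on the opposite strand.
Epb4.2: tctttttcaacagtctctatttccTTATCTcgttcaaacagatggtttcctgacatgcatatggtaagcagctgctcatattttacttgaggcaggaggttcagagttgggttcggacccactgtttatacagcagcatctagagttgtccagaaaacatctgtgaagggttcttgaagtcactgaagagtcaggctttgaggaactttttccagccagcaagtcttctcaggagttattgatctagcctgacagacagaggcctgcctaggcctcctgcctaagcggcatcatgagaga
Hemgn: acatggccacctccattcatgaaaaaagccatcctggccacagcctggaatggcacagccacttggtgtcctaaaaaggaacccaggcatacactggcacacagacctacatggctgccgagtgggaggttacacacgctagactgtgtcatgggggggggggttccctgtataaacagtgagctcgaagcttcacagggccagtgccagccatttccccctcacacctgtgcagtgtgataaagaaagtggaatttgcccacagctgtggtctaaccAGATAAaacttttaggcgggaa

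Cell cycle lists had positive medians and few calls. Of 58 S-phase and licensing genes 4 were called higher, against 1.8% of all genes, and 0 lower, with a median of 0.39. Asf1b, a histone chaperone of replicating cells, was measured at 60.2, 51.5 and 28 CPM in the WT plates and 123, 110.1, 95.5 and 102 CPM in the double mutant plates, without overlap (log2 fold change 1.18 ± 0.22, edgeR adjusted p = 0.0188). Ccne1, the cyclin that starts S phase, Orc2, a subunit of the origin recognition complex, and Cdc6, which loads the helicase, rose by 1.36, 0.88 and 0.82 on the log2 scale. Of 58 G2 and mitosis genes 4 were called higher and 55 lay above 0 (median 0.47). Ccnb1, which encodes cyclin B1, was measured at 116, 147 and 147 CPM in the WT plates and 319.9, 289, 191 and 214 CPM in the double mutant plates (log2 fold change 1.09 ± 0.24, edgeR adjusted p = 0.0293). All double mutant plates exceeded WT, and the call held without the library labelled double mutant replicate 4 (log2 fold change 1.47, adjusted p = 0.0463). In erythroid-free wells the S-phase median was 0.17 and the mitotic median 0.39, with 0 called by edgeR in either list (3 and 14 had an unadjusted p under 0.05, and DESeq2 called 1 and 4 higher). After the library labelled double mutant replicate 4 was left out, the medians over all wells were 0.18 and 0.58. Then 0 S-phase genes were called by edgeR (5 had an unadjusted p under 0.05), and Ccnb1 was the one mitotic gene called.

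DNA damage tolerance genes were mostly not called. Of 30 tested genes, which include the other translesion polymerases, the Rad6 and Rad18 ubiquitin enzymes and the template switching enzymes, only Ube2v2 passed. Ube2v2, a partner of the ubiquitin conjugase that extends chains on the clamp, stood at 67.4, 61.5 and 70.1 CPM in the WT plates and 119.9, 115, 78.1 and 109 CPM in the double mutant plates (log2 fold change 0.71 ± 0.18, edgeR adjusted p = 0.0457), without overlap. The list's median was 0.05 over all wells and −0.03 in erythroid-free wells. Ube2v2 was not called without the library labelled double mutant replicate 4 (log2 fold change 0.64, edgeR adjusted p = 0.34). Of 54 genes of the Fanconi pathway, checkpoints and homologous recombination, 0 were called by edgeR or DESeq2 (4 had an unadjusted p under 0.05), with a median of 0.18 over all wells and −0.04 in erythroid-free wells.

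Interferon-stimulated genes gave more calls than any other of the 51 lists, all of them lower. These genes are induced by type I and type II interferons and restrict viruses, and they are known to be expressed at a basal level in blood stem cells. Of 61 tested members 28 were called lower and 0 higher, against 2.41% of all genes, all 61 had a negative fold change, and the median was −1.25. In 36 all double mutant plates lay below all WT plates, against 11.0% of genes. Their promoters were examined for an interferon-stimulated response element, taken as GAAA, any pair of bases and GAAA again on either strand. Of 48 members with a RefSeq window 26 (54.2%) held it, against 3.7% of 9799 genes tested and 3.44% of all windows. Shown in capitals are the elements of Trim30d at chr7:104507800-104508099 (minus strand), Ifit1 at chr19:34640639-34640938 (plus strand) with 2 copies, and Rsad2 at chr12:26456403-26456702 (minus strand), all in GRCm38.p6, chosen among the called members with the smallest p.
Trim30d: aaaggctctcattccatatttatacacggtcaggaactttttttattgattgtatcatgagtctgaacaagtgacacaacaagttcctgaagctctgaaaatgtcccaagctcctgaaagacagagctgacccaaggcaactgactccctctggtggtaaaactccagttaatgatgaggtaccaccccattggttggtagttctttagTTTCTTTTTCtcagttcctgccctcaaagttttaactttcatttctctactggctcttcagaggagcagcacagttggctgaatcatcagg
Ifit1: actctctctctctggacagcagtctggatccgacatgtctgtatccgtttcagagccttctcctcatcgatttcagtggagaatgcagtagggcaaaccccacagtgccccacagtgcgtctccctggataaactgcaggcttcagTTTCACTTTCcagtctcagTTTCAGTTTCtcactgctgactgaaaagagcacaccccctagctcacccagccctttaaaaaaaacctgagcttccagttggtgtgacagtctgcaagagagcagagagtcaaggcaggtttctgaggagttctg
Rsad2: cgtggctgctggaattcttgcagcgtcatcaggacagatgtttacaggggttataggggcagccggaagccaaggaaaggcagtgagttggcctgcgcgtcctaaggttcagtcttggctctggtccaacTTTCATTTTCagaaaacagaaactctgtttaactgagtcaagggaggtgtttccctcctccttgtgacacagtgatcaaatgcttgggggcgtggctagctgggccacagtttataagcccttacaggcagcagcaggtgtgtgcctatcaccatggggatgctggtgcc

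Ifi44, an interferon-induced protein, was measured at 21.3, 41.2 and 33.8 CPM in the WT plates and 2.92, 2.29, 0 and 1.22 CPM in the double mutant plates. All double mutant plates were listed below 3 CPM and the groups did not overlap, although the 0 in the thin replicate 3 allows up to 26 CPM, which reaches into the WT range (log2 fold change −3.51 ± 0.39, edgeR adjusted p = 0.00218). Ifit1, which binds viral RNA caps, stood at 34.1, 61.9 and 82 CPM in the WT plates and 7.71, 2.7, 17.4 and 4.46 CPM in the double mutant plates (log2 fold change −3.07 ± 0.42, edgeR adjusted p = 0.007). Rsad2, the antiviral enzyme viperin, stood at 43.3, 41.2 and 80.6 CPM in the WT plates and 8.86, 2.18, 17.4 and 2.43 CPM in the double mutant plates (log2 fold change −3.33 ± 0.50, edgeR adjusted p = 0.0102). In both, each double mutant plate was below each WT plate, and the thin replicate 3 was the highest of its group. Trim30d, a tripartite motif protein with close paralogues, so that its count is less certain, fell by 2.57 on the log2 scale, and Xaf1, a pro-apoptotic interferon target, fell by 1.90. Oasl2, a relative of the oligoadenylate synthetases, was measured at 63.6, 100 and 131 CPM in the WT plates and 25.3, 11.9, 8.68 and 5.68 CPM in the double mutant plates, without overlap. Dhx58, a sensor of viral RNA, and Samd9l, a restriction factor mutated in marrow failure, had log2 fold changes of −2.41 and −1.48, and Irgm2, an immunity-related GTPase, of −1.68.

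In erythroid-free wells 12 of 61 were called lower and 0 higher, 59 had a negative fold change, and the median was −0.99. Ifi44 there was 25.9, 46.8 and 37.5 CPM in WT and 3.03, 1.57, 0 and 1.87 CPM in the double mutant (log2 fold change −3.54 ± 0.40, edgeR adjusted p = 0.00176), and Ifit1 fell from 44.1, 67.1 and 97.7 CPM to 8.16, 4.18, 11 and 3.74 CPM. With the library labelled double mutant replicate 4 left out, the median over all wells was −0.87 and 2 members were called lower, Ifi44 and Trim30d. Within session 1 the median was −0.96 and within session 3 −1.85. Summed over the list the level was 3434, 4308 and 4177 CPM in WT and 2647, 1975, 5494 and 1562 CPM in the double mutant. Replicate 3 exceeded WT in this sum, in which it held Slfn8 at 1719 CPM and Eif2ak2 at 1701 CPM, against 56.2 to 63.2 and 68.4 to 105 CPM in WT. These 2 genes were singled out after their values were seen. Of 14 genes of MHC class I presentation, a further interferon-responsive group, 0 were called by edgeR (4 had an unadjusted p under 0.05, and DESeq2 called 2 lower), with a median of −0.43.

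Of 22 chemokine and inflammatory genes 4 were called lower, against 2.41% of all genes, 0 higher and 18 neither, with a median of −0.56. Those called were the chemokines Ccl3 and Ccl4, and Wfdc17 and Il18. Ccl4, a chemokine that attracts monocytes and T cells, was measured at 38.2, 31.6 and 32.3 CPM in the WT plates and 2.57, 2.6, 0 and 0.406 CPM in the double mutant plates (log2 fold change −4.28 ± 0.45, edgeR adjusted p = 0.00218). Wfdc17, a whey acidic protein inhibitor made by activated myeloid cells, stood at 42.8, 35.6 and 40.3 CPM in the WT plates and 4.78, 3.12, 0 and 1.62 CPM in the double mutant plates (log2 fold change −3.73 ± 0.35, edgeR adjusted p = 0.000939). Every double mutant plate lay below every WT plate in both genes, and both calls held without the library labelled double mutant replicate 4. Ccl3 and the cytokine Il18 had log2 fold changes of −3.96 and −1.41. In erythroid-free wells Ccl4, Wfdc17 and Ccl3 remained called, with the median at −0.37.

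Of 48 tested regulators of stem cells 14 were called lower and 0 higher, against 2.41% and 1.8% of all genes, 44 had a negative fold change, and the median was −0.86. In 24 all double mutant plates lay below all WT plates, against 11.0% of all genes. The list's sum was 5718, 6558 and 5713 CPM in WT and 4557, 4356, 2639 and 3455 CPM in the double mutant, without overlap. Hlf, a transcription factor that marks stem cells, was measured at 420.4, 408 and 375 CPM in the WT plates and 149, 195, 208 and 116 CPM in the double mutant plates (log2 fold change −1.54 ± 0.20, edgeR adjusted p = 0.00455). Every double mutant plate was below every WT plate. Txnip, which restrains glucose uptake and thioredoxin, fell by 1.06 on the log2 scale, and Robo4, a guidance receptor that anchors stem cells, by 2.01 with replicate 3 inside the WT range. In erythroid-free wells the median was −0.59 and 40 of 47 lay below 0, but only Hlf was called, at 568, 440.2 and 446 CPM in WT and 204, 305, 242 and 243 CPM in the double mutant (log2 fold change −1.08 ± 0.21, edgeR adjusted p = 0.0425). With the library labelled double mutant replicate 4 left out, the median was −0.84 with 0 called by edgeR (26 had an unadjusted p under 0.05). Within session 1 the median was −0.67 and within session 3 −0.86.

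The Hox genes, transcription factors that sustain self-renewal, were grouped by name after values were seen. Of 31 members 12 passed the filter on low counts, 5 were called lower and 0 higher, and the median of the tested genes was −1.13, or −0.82 in erythroid-free wells. Hoxa9 was measured at 139, 150 and 132 CPM in the WT plates and 87.1, 77.8, 8.68 and 53.1 CPM in the double mutant plates, without overlap (log2 fold change −1.25 ± 0.32, edgeR adjusted p = 0.0468). Hoxb3, Hoxa3, Hoxa5 and Hoxa10 had log2 fold changes of −2.50, −1.55, −1.13 and −1.13. Their summed level was 297, 309 and 296 CPM in the WT plates and between 129 and 182 CPM in the double mutant plates, without overlap. After the library labelled double mutant replicate 4 was left out, the median was −1.12, with 0 called by edgeR (7 had an unadjusted p under 0.05). Of 27 Notch, Wnt and TGF-beta genes 3 were called lower and 0 higher, and Smad7, an inhibitor of TGF-beta signalling, stood at 22.8, 14.1 and 12.7 CPM in the WT plates and 3.9, 6.45, 8.68 and 2.84 CPM in the double mutant plates (log2 fold change −2.10 ± 0.34). Tgfbr2, the type II TGF-beta receptor, was measured at 46.4, 45.6 and 42.5 CPM in the WT plates and 18.6, 14.1, 0 and 15 CPM in the double mutant plates (log2 fold change −1.60 ± 0.26, edgeR adjusted p = 0.0106). Neither overlapped with WT. Cxcr4, the receptor that retains stem cells in their niche, fell by 1.65 on the log2 scale over all wells and by 1.17 in erythroid-free wells, where it was also called.

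Of 29 tested genes of lymphoid priming 6 were called lower, 0 higher and 23 neither (median −0.82), and the list's sum was 2358, 2565 and 2321 CPM in WT and 1661, 1459, 1458 and 1252 CPM in the double mutant, without overlap. Flt3, a receptor tyrosine kinase of early progenitors with lymphoid potential, was measured at 209, 259 and 237 CPM in the WT plates and 78.6, 52, 26 and 42.2 CPM in the double mutant plates (log2 fold change −2.17 ± 0.27, edgeR adjusted p = 0.00368). Satb1, a chromatin organiser needed for lymphoid fate, stood at 153, 174 and 173 CPM in the WT plates and 63.6, 46, 43.4 and 16.6 CPM in the double mutant plates (log2 fold change −2.23 ± 0.36, edgeR adjusted p = 0.0106). In both every double mutant plate was below every WT plate. The remaining calls were Zfp608, a zinc finger protein, Mef2c, which favours lymphoid over myeloid fate, Notch1 and Tcf4, with log2 fold changes of −1.70, −0.98, −1.37 and −1.02. In erythroid-free wells Flt3, Satb1 and Zfp608 were called and the list's median was −0.42. Flt3 there was 268, 279 and 295 CPM in WT and 111, 78.5, 22 and 103 CPM in the double mutant (log2 fold change −1.61 ± 0.25, edgeR adjusted p = 0.0146). With the library labelled double mutant replicate 4 left out, the median over all wells was −0.29 and Zfp608 alone was called. Myeloid priming genes gave 1 call lower of 39, close to the 2.41% of all genes. That gene was Gfi1, a repressor that restricts stem cell cycling. The median of the myeloid list went from −0.65 to −0.17 in erythroid-free wells.

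The list of imprinted and fetal growth genes held the smallest p of all genes, that of Meg3. Of 25 tested members 8 were called lower, against 2.41% of all genes, 0 higher and 17 neither (median −0.85). Meg3, a maternally expressed long non-coding RNA, was measured at 59.8, 68.1 and 60.6 CPM in the WT plates and 3.1, 1.66, 26 and 6.49 CPM in the double mutant plates. Double mutant replicates 1, 2 and 4 held under 7 CPM, and replicate 3 with 3 UMIs stood between them and WT (log2 fold change −4.02 ± 0.34, edgeR adjusted p = 0.000731). Dlk1, the paternally expressed growth regulator of the same imprinted cluster, stood at 73.6, 55.3 and 42.8 CPM in the WT plates and 17.5, 17.7, 0 and 9.73 CPM in the double mutant plates (log2 fold change −2.24 ± 0.26, edgeR adjusted p = 0.00303). Igf2, a paternally expressed fetal growth factor, stood at 25, 14.1 and 23.6 CPM in the WT plates and 1.33, 1.56, 0 and 2.03 CPM in the double mutant plates (log2 fold change −3.90 ± 0.42, edgeR adjusted p = 0.00218). None of the 3 overlapped between groups as listed, and for Igf2 the 0 in replicate 3 allows up to 26 CPM, above the WT values. H19, the maternally expressed partner of Igf2, was measured at 248, 94.3 and 88.9 CPM in the WT plates and 90.9, 38.2, 60.8 and 14.6 CPM in the double mutant plates, where double mutant replicate 1 reached into the WT range (log2 fold change −2.16 ± 0.35). Igf2bp2, a fetal RNA-binding protein, and Ndn, a paternally expressed gene, had log2 fold changes of −1.37 and −1.06. In erythroid-free wells Meg3, Igf2 and Dlk1 were called, with Meg3 at 93.8, 77.1 and 75.9 CPM in WT and 4.43, 1.57, 33.1 and 13.1 CPM in the double mutant. The same 3 were called without the library labelled double mutant replicate 4, where the list's median was −0.88.

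Markers of other cell types that a sort could carry were measured beside these groups. The summed B-lineage level was 532, 399 and 390.2 CPM in WT and 1157, 839, 911 and 846 CPM in the double mutant, with Cd24a, which erythroid precursors express as well, the one of 12 genes called. Neutrophil granule genes varied widely, from 5.8 to 2650.4 CPM in WT and from 19.3 to 267 CPM in the double mutant, and 0 of 9 were called by edgeR (1 had an unadjusted p under 0.05, and DESeq2 called 1 higher). Macrophage genes ranged from 182 to 926 CPM and from 346 to 694 CPM, with 0 of 17 called by edgeR or DESeq2 (2 had an unadjusted p under 0.05). Mast cell genes gave 1 call lower of 18, Mcpt4, which was measured at 148, 0 and 0 CPM in WT and so rests on WT replicate 1. The part of these cells in the results was not tested.

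The number of calls moved with single plates. The bars of calls after leaving out each plate show, over all wells, the lowest count without the library labelled double mutant replicate 4 and the highest without the Rev1 knockout plate that shares session 2 with double mutant replicate 3. In erythroid-free wells the lowest count was that without WT replicate 1 and the highest that without double mutant replicate 3.

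**Figure D4:**
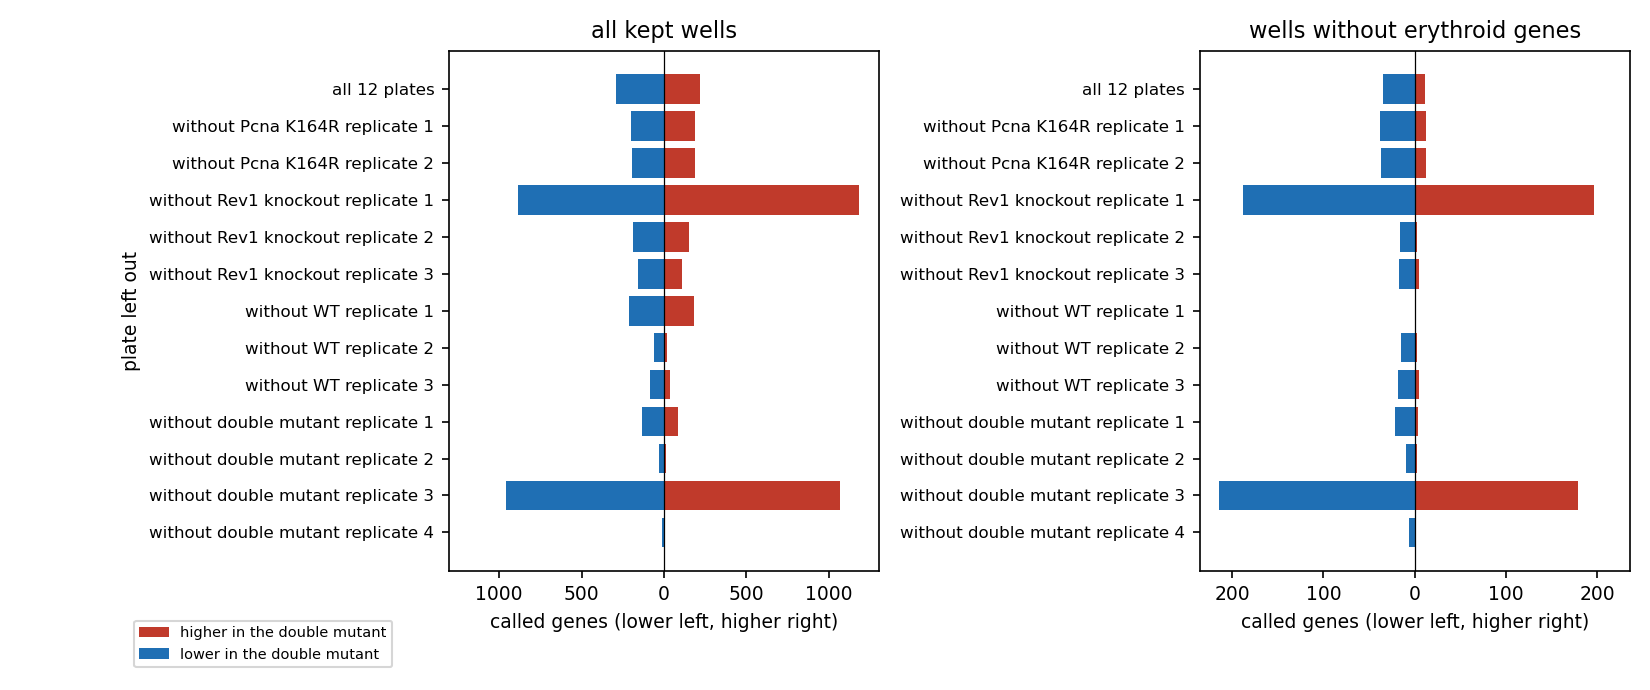
Number of genes called (x axis) after leaving out each of the 12 plates in turn, for all kept wells (left) and erythroid-free wells (right), with higher and lower calls in separate colours. Over all wells the count runs from 12 to 2074 around 514, and in erythroid-free wells from 0 to 393 around 46.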

How the data were processed

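Single-cell 3' libraries (SORT-seq) of 12 plates were deposited as gene tables of 384 wells. The deposited UMI counts and read counts are whole numbers per gene and well, and the expected counts are the authors' transcript counts, slightly above the UMI counts where these are high. BWA 0.7.15 and build GRCm38 are named in the submitters' processing notes with no role stated, and the counter is not given in the sources used here. UMI counts were summed per gene and plate over wells with at least 1000 UMIs outside spike-in rows, which kept 3088 of 4608 wells. Sums were tested with edgeR 4.0.16 in R 4.3.3 (TMM, filterByExpr, quasi-likelihood F-test, genotype and sort session, 12 plates, Benjamini-Hochberg at 0.05), and the same test was run on wells without Klf1, Rhd and Rhag UMIs. CPM values are TMM-scaled. Shares of wells were compared after thinning to 1000 UMIs with an exact permutation test (scipy 1.17.1). The scripts were tested on simulated data. Alternatives included DESeq2 1.42.0, other scalings, filters, batch terms, wells and counts, and leaving out each plate. Transcript counts were rounded to whole numbers for their alternative. Named genes are Rev1, Pcna, the 30 with the smallest p in each direction, the 20 with the smallest p in each direction in erythroid-free wells, and up to 6 called members of each list, with others marked in the text. A few genes that meet this rule are not reported here. Promoters were taken from RefSeq windows matched by symbol. The members and the 51 gene lists were chosen with earlier results of these data known, and no list was given a test of its own.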

Additional observations from a re-analysis of the deposited data

Results flagged for a closer look

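Within the 4 double mutant plates, 1 plate stood apart from the other 3 by Dixon's 95% criterion in 17 of 118 gene or list values examined. Chance flags about 1 in 20 groups. In 14 of the 17 the separate plate was the thin replicate 3. There Ccng1 was at 95.5 CPM (others 168 to 183), Bax at 26 (91.2 to 98.9), Noc4l at 43.4 (80.3 to 81.8), Tars at 113 (152 to 154), Orc2 at 69.4 (112 to 117), Cdca3, a mitotic entry gene, at 43.4 (138 to 142), Hoxa10 at 8.68 (12.6 to 13.2) and Maff, a small Maf factor, at 0 (1.62 to 1.95). The summed level of the mitochondrial translation genes was 2960 CPM there against 6704 to 6847 CPM. Replicate 3 was the high plate for Ddx60, a helicase of the interferon response, at 26 CPM (others 1.22 to 2.60), Tcf4 at 139 (82.3 to 91.7) and Igf2bp2 at 60.8 (32.8 to 36.1). It was also high for Slfn8 at 1719 CPM (others 10.1 to 22.5) and Eif2ak2 at 1701 CPM (33.8 to 40.5), which are 198 and 196 UMIs.

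The library labelled double mutant replicate 4 stood apart for Hemgn at 189 CPM (others 77.9 to 94.8) and Cdc6 at 106 CPM (76.9 to 80.8). Double mutant replicate 1 stood apart for Mcpt4, a mast cell protease, at 5.58 CPM (others 0 to 0.405).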

How the results depend on the processing

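Over all wells 514 genes were called. The count was 1430 with DESeq2, 1199 with no filter on low counts, 1837 with the 7 plates alone (1089 higher, 748 lower), 110 with wells thinned to 1000 UMIs, 1339 within session 3, where double mutant replicate 4 is alone, and 1 within session 1, where WT replicate 1 is alone (edgeR; 2183 at an unadjusted p under 0.05). With read counts it was 1 (1304 unadjusted), and with flow cell in place of session 0 (edgeR; 1376 unadjusted). Leaving out 1 plate gave 12 to 2074 calls. Counts moved by over 1.5 times without double mutant replicates 1, 2, 3 and 4 (219, 48, 2031 and 12), WT replicates 2 and 3 (81 and 116) and Rev1 knockout replicates 1, 2 and 3 (2074, 342 and 266). 2 alternatives chosen after seeing the data, leaving out X and Y genes and using all wells whatever their depth, gave 623 and 594 calls. In erythroid-free wells 46 genes were called, against 330 with DESeq2, 312 with no filter, 311 with the 7 plates alone, 87 with a minimum of 3000 UMIs, 17 with a rule of 13 erythroid genes, 1 within session 1 (1742 unadjusted) and 0 within session 3 (edgeR; 1400 unadjusted). Leaving out 1 plate gave 0 to 393 calls there, with 0 without WT replicate 1 (edgeR; 1000 unadjusted), 393 without double mutant replicate 3, 26, 12 and 6 without double mutant replicates 1, 2 and 4, 17 and 23 without WT replicates 2 and 3, and 384, 19 and 22 without Rev1 knockout replicates 1, 2 and 3. With the 7 plates alone, or without Rev1 knockout replicate 1, double mutant replicate 3 was the only plate of session 2. The term for that session then fitted it alone, so it added nothing to the comparison of double mutant with WT. The cause of the other shifts was not tested. The difference in the share of wells with an erythroid UMI was 9.78 to 15.4 percentage points when 1 plate was left out.

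Of 3684 values of 143 gene results under an alternative, 2585 kept their side of the threshold and 18 passed it newly. A further 1080 lost the call but kept direction. Reversals were counted only among results called in the main fit, and 1 was found. That was Mcpt4 with flow cell in place of session (log2 fold change 8.53, edgeR adjusted p = 0.342). Direction was not checked for results not called, and Pcna went from 0.41 to −0.03 without the library labelled double mutant replicate 4. Most of these genes were chosen by their calls in the same plates, so a kept direction is no independent support. Of 864 list medians 846 kept their sign. The others were DNA damage tolerance with thinned wells (−0.05), B-lineage within session 3 (−2.73), cytosolic ribosomal proteins with all wells (0.02), flow cell (0.37), no mitochondrially encoded genes (0.001), session 1 (0.21), session 3 (0.08), the 7 plates (0.19), and without Rev1 knockout replicate 1 (0.20), WT replicate 3 (0.10) or double mutant replicate 3 (0.17), and apoptosis regulators with flow cell (0.10), session 1 (0.006), the 7 plates (0.01), and without Rev1 knockout replicate 1 (0.01), WT replicate 2 (0.02), WT replicate 3 (0.05) or double mutant replicate 4 (0.02). No paired analysis was possible because replicate numbers follow the order of deposit. A listed 0 in double mutant replicate 3 allows up to 26 CPM over all wells, and more in erythroid-free wells.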

Other observations

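Further gene groups showed differences that the text above does not describe. Of 8 guanylate-binding protein genes, interferon-induced GTPases grouped by name after values were seen, 3 were called lower and 0 higher, and the median was −2.03. Of 4 Ypel genes, grouped in the same way, 2 were called lower (median −1.40). Ypel3, a small protein linked to growth arrest, was measured at 92.2, 58.1 and 55.5 CPM in the WT plates and 35.6, 28.1, 0 and 16.2 CPM in the double mutant plates, with log2 fold change −1.72 ± 0.24 (edgeR adjusted p = 0.00714) and −1.45 ± 0.27 in erythroid-free wells (adjusted p = 0.0391). Of 22 immediate-early genes, switched on within minutes of a stimulus, 2 were called lower and 0 higher (median −0.46), namely Klf6 and Maff. Of 32 adhesion and homing receptors 3 were called lower (median −0.64), and of 40 polycomb and chromatin regulators 3 (median −0.34), among them the DNA methyltransferase Dnmt3a with a log2 fold change of −0.95 and Hmga2, a chromatin protein of fetal stem cells, with −1.05.

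Heat shock and redox lists gave calls mostly in the other direction. Of 25 heat shock and endoplasmic reticulum chaperones 3 were called higher and 0 lower (median 0.27), with Hsp90aa1, a major cytosolic chaperone, at 1.02 and Hsph1 at 1.01 on the log2 scale. Of 34 redox and glutathione genes 4 were called higher and 1 lower, with Gclm, a subunit of the enzyme that starts glutathione synthesis, at 1.18 and Prdx3, the mitochondrial peroxiredoxin, at 0.99. Of 21 megakaryocyte genes 1 was called higher, Serpine2, and 3 lower, among them Plek and Fli1.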
